A study of Mus musculus with 4 samples.

Results

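RET, the receptor tyrosine kinase for ligands of the glial cell line-derived neurotrophic factor (GDNF) family, its GFRA co-receptors and the ligands themselves were followed at E18.5 in whole mouse pancreas by RNA-seq. The 9 genes, *Ret*, *Gfra1*, *Gfra2*, *Gfra3*, *Gfra4*, *Gdnf*, *Nrtn*, *Artn* and *Pspn*, were taken by symbol from a count table of 24391 genes. The study compared 2 libraries of *Rest* pKO embryos (Pdx1Cre RESTLoxP/LoxP) with 2 libraries of control embryos (Pdx1Cre RESTwt), all on a mixed background with C57BL/6, and asked which genes change when the transcriptional repressor REST is lost. By the labels both genotypes carried the *Pdx1-Cre* transgene, although a supplementary heading of the study names the control Rest LSL, so that an effect of the transgene itself cannot be told apart if the control lacked it. In *Rest* pKO embryos this Cre excises exon 4 of *Rest* in the pancreatic epithelium, while cells that the transgene does not reach, the mesenchyme among them, keep the gene. Counts of the whole organ mix all of these cells, and in such bulk samples fewer cells of a type and less RNA per cell cannot be told apart. The 9 genes were chosen with results of this same contrast known, in which *Ret* and *Gfra3* were already seen to be higher, so the differences between genotypes are given as a description.

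RET is reached through a co-receptor. A ligand of the GDNF family binds a GFRA protein, which is held to the membrane by a lipid anchor, and the pair then brings RET molecules together and starts signalling through RAS, PI3 kinase and phospholipase C. Each ligand has a preferred partner, GDNF with GFRA1, neurturin with GFRA2, artemin with GFRA3 and persephin with GFRA4. In mice the pathway is best known for guiding enteric neuron precursors into the gut and for branching of the ureteric bud in the kidney, and in the pancreas neurturin and GFRA2 are needed for the parasympathetic nerves that reach the islets.

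Counts summed to 20738162 and 24134100 in *Rest* pKO replicates 1 and 2, and to 16936759 and 18644088 in control replicates 1 and 2. Digestive enzyme genes of acinar cells took 39.5% and 45.8% of these counts in *Rest* pKO libraries, and 38.9% and 38.1% in control libraries. *Xist* and Y-linked counts showed that *Rest* pKO replicate 1 was male and replicate 2 female, whereas control replicate 1 was female and replicate 2 male, so that the libraries of a genotype came from different embryos. Levels below are CPM, the usual per-library scaling of counts to a common total, here with library sizes adjusted by the trimmed mean of M-values. *Rest* itself had 12.1 and 9.16 CPM in *Rest* pKO libraries, against 14.2 and 15.7 CPM in control libraries. The deletion of exon 4 is not measured by such a count, which pools every exon and every cell type. In edgeR's quasi-likelihood test with Benjamini-Hochberg adjustment, 0 of 14550 genes were called higher in *Rest* pKO and 4 were called lower at an adjusted p under 0.05. Unadjusted, 474 genes were higher and 816 lower at p under 0.05, and DESeq2 called 26 higher and 76 lower.

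Of the 9 genes, 8 had counts and passed the filter on low counts, and *Pspn* had no read in any library. Ranked by CPM per kb of exon, the scale on which genes of different length can be set side by side, *Gfra1* led in *Rest* pKO libraries with a mean of 3.84, followed by *Gfra3* with 3.17, *Ret* with 2.75 and *Gfra2* with 1.53 CPM per kb. The ranges of *Gfra1*, *Gfra3* and *Ret* overlapped between those 2 libraries, so their order was within the spread. In control libraries *Gfra1* led with 4.25 CPM per kb and lay apart from *Gfra2* with 1.83 and *Gfra3* with 1.66, whose ranges overlapped, and *Ret* followed with 1.16. *Gfra4* and the ligands *Gdnf*, *Nrtn* and *Artn* had means between 0.210 and 0.867 CPM per kb in either genotype.

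**Figure D1:**
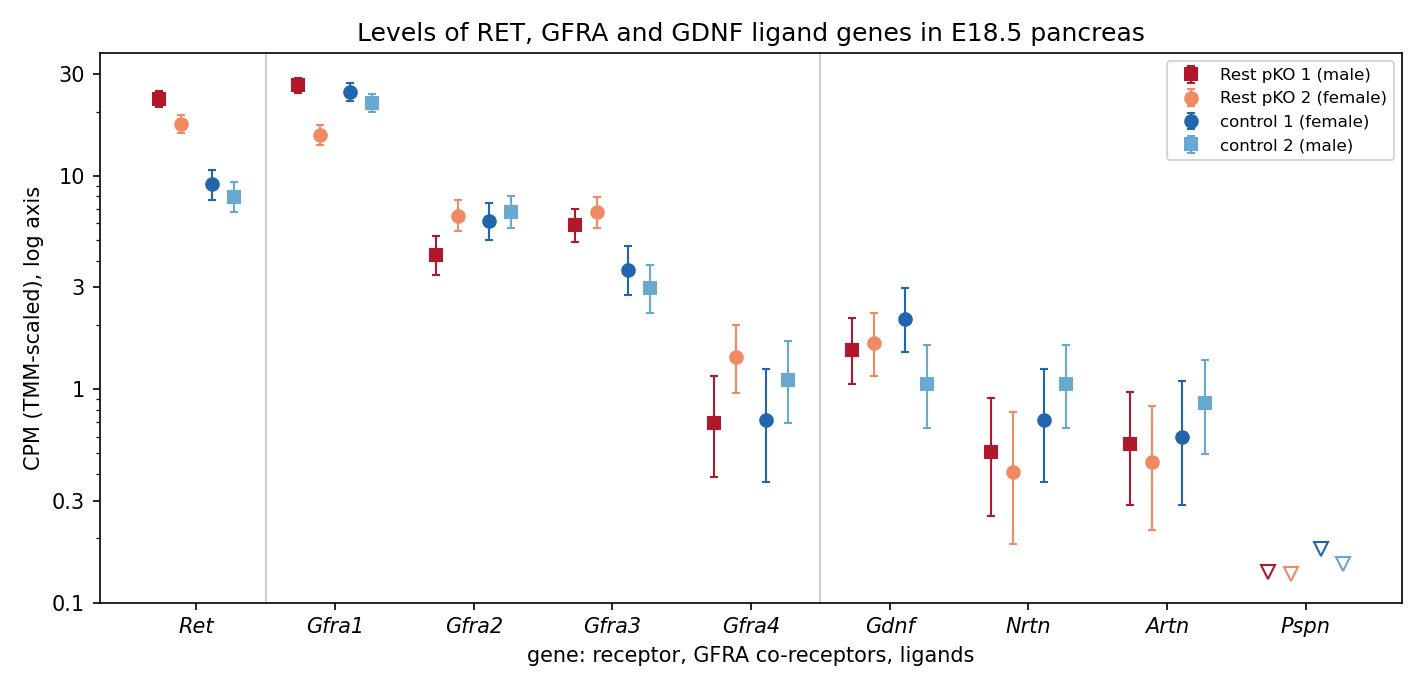
Level of each gene in every library, in CPM on a log axis, with *Rest* pKO libraries left of control libraries. Points are single libraries and bars are exact Poisson 95% intervals of the count. Open triangles mark the level that 3 counts would give where a gene had none (*Pspn*). *Ret* and *Gfra3* are the genes whose *Rest* pKO libraries both lie above both controls, while *Nrtn* and *Artn* lie below with wide intervals.

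In *Rest* pKO, 2 of the 8 tested genes (*Ret* and *Gfra3*) lay above both controls and 2 (*Nrtn* and *Artn*) below both, and the groups overlapped for the other 4. Over all genes tested, 21.5% lay above both controls and 21.2% below both. Without adjustment, *Ret* and *Gfra3* were higher at p under 0.05 and no member was lower, where 3.26% of all genes tested were higher and 5.61% lower. After adjustment over all genes, edgeR called 0 members, with 0% of all genes called higher and 0.0275% called lower. DESeq2, the tool of the original study, called 1 member higher (*Ret*), with 0.182% of the genes to which it gave an adjusted p called higher. These shares belong to the contrast from which the genes were chosen, and nothing further is read from them.

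*Ret* encodes the signalling receptor and spans chr6:118101766-118147762 on the minus strand of mm9, with 7.34 kb of exon. It was counted 495 and 384 times in *Rest* pKO libraries, against 153 and 158 times in control libraries. As levels these were 23.0 and 17.5 CPM in *Rest* pKO and 9.11 and 7.97 CPM in control. Both *Rest* pKO libraries lay well above both controls, and the lowest Poisson bound among them, 15.8 CPM, was above the highest among the controls, 10.7 CPM. The *Rest* pKO libraries also differed from each other by more than counting error, with the male above the female. Means were 20.2 ± 3.86 CPM in *Rest* pKO and 8.54 ± 0.805 CPM in control (SD, n = 2 each). edgeR fitted a 2.37-fold difference, 1.24 on the log2 scale with a standard error of 0.23. The unadjusted p of 0.000764 from edgeR's fit across all genes ranked 30th among genes tested and 6th among those that were higher. Its adjusted p was 0.349 with edgeR and 0.0125 with DESeq2, so the tools fell on different sides of the threshold. With sex as a term, which leaves 1 residual degree of freedom, edgeR gave an adjusted p of 0.00481 at nearly the same log2 fold change, 1.23. The standard error of *Ret* was larger in that fit, at 0.30, and the fit called 60 genes higher and 187 lower over all genes. The smaller adjusted p thus did not come with a tighter estimate for *Ret*. Over all alternatives its adjusted p ran from 0.00481 to 0.362, and leaving out any 1 library gave 0.0545 to 0.299.

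*Gfra3*, the co-receptor that prefers artemin, had the next highest log2 fold change among the 8 tested genes. It spans chr18:34849557-34880041 on the minus strand, with 1.99 kb of exon. Counts were 127 and 148 in *Rest* pKO and 61 and 59 in control, which gave 5.89 and 6.74 CPM in *Rest* pKO, against 3.63 and 2.98 CPM in control. The genotypes did not overlap, and the Poisson intervals of libraries of the same genotype overlapped. The lowest Poisson bound in *Rest* pKO was 4.91 CPM, against a highest bound of 4.66 CPM in control. *Gfra3* averaged 6.32 ± 0.603 CPM in *Rest* pKO and 3.30 ± 0.464 CPM in control (SD, n = 2 each). This was a 1.91-fold difference in the fit, 0.94 on the log2 scale with a standard error of 0.29, and edgeR gave it an unadjusted p of 0.0126. Adjusted p was 0.460 with edgeR and 0.545 with DESeq2, so neither tool called it.

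*Gfra1*, the GDNF co-receptor, had the highest mean of CPM per kb in either genotype, and its widest gap was between the *Rest* pKO libraries. It spans chr19:58310094-58530399 on the minus strand, with 5.48 kb of exon, and overlaps the antisense gene *Gm16277*, whose reads cannot be told apart because the strand setting of the counts is not given in the sources used here. *Gfra1* had 26.5 and 15.5 CPM in *Rest* pKO libraries, against 24.6 and 21.9 CPM in control libraries. The male *Rest* pKO library was the highest of the 4 and the female the lowest, and their Poisson intervals, 24.4 to 28.8 and 13.9 to 17.2 CPM, did not touch. The log2 fold change was −0.15 (standard error 0.27, edgeR adjusted p = 0.865), and without *Rest* pKO replicate 2 it became 0.19.

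*Gfra2*, the neurturin co-receptor (chr14:71289927-71379645, plus strand, 3.52 kb of exon), had 4.27 and 6.51 CPM in *Rest* pKO libraries, against 6.13 and 6.76 CPM in control libraries. Here the male *Rest* pKO library was the lowest, and the female lay between the controls. The log2 fold change was −0.26 (standard error 0.30, edgeR adjusted p = 0.784), and it became 0.02 without *Rest* pKO replicate 1. *Gfra4*, the persephin co-receptor (chr2:130865368-130868824, minus strand, 2.17 kb of exon), was counted 15 and 31 times in *Rest* pKO and 12 and 22 times in control, or 0.696 and 1.41 CPM against 0.714 and 1.11 CPM. Its genotypes overlapped, and the log2 fold change of 0.20 (standard error 0.54, edgeR adjusted p = 0.907) became −0.39 without *Rest* pKO replicate 2 and −0.08 without control replicate 1.

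The co-receptor levels added up to 9.33 and 8.72 CPM per kb in *Rest* pKO libraries, against 8.40 and 7.93 CPM per kb in control libraries, so that the sum was slightly higher in both *Rest* pKO libraries. *Gfra3* made up 31.7% and 38.8% of that sum in *Rest* pKO and 21.7% and 18.8% in control. *Gfra1* made up 51.9% and 32.4% in *Rest* pKO and 53.6% and 50.4% in control. The share of *Gfra3* was thus higher in both *Rest* pKO libraries, while that of *Gfra1* was low in *Rest* pKO replicate 2, the library in which *Gfra3* exceeded *Gfra1* (ratio of 1.20). In the other *Rest* pKO library this ratio was 0.610, against 0.405 and 0.374 in control libraries. *Gfra2* held 13.0% and 21.3% in *Rest* pKO and 20.8% and 24.3% in control, and *Gfra4* between 3.44% and 7.48% in every library. *Ret* per unit of summed co-receptor was 0.335 and 0.273 in *Rest* pKO, against 0.148 and 0.137 in control. These ratios are made from the values of *Ret* and *Gfra3* that guided the choice of genes and carry no test.

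**Figure D2:**
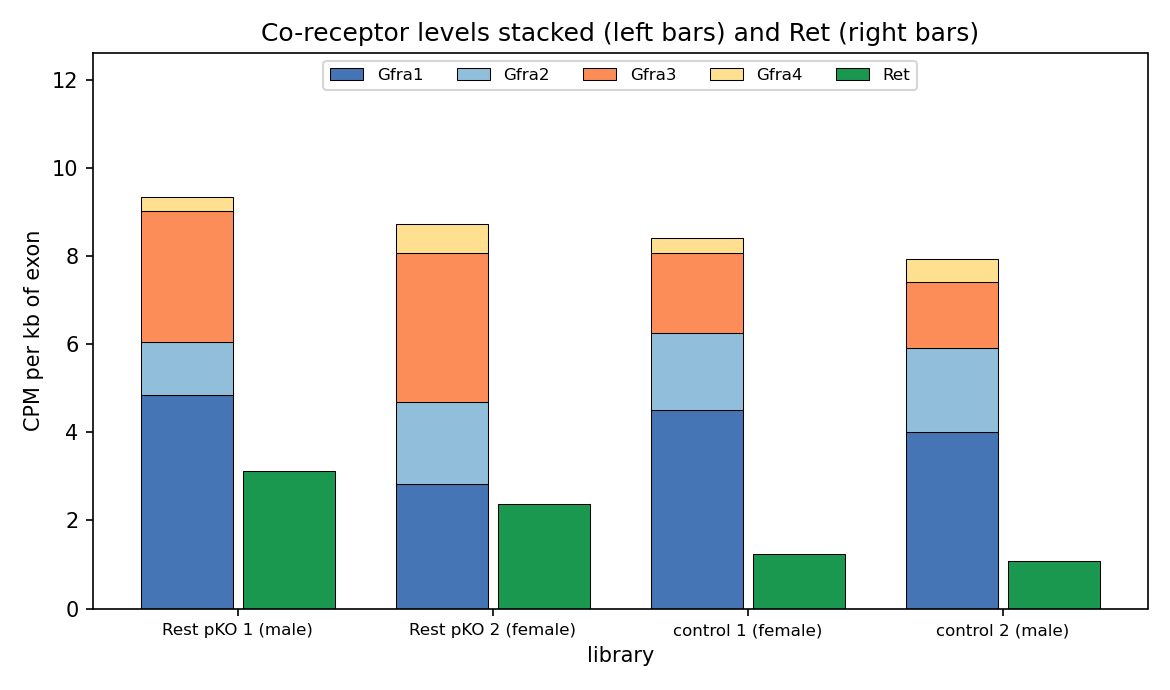
Levels of the GFRA co-receptors, stacked in the left bar of each library, and of *Ret*, in the right bar, in CPM per kb of exon. The stacks reach 9.33 and 8.72 in *Rest* pKO libraries and 8.40 and 7.93 in control libraries, whereas *Ret* reaches 3.12 and 2.38 in *Rest* pKO and 1.24 and 1.08 in control.

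The ligands were scarce. *Gdnf*, which signals through GFRA1 (chr15:7761011-7787575, plus strand, 3.51 kb of exon), was counted 33 and 36 times in *Rest* pKO and 36 and 21 times in control. Its levels were 1.53 and 1.64 CPM in *Rest* pKO, between the controls of 2.14 and 1.06 CPM. The log2 fold change was −0.0041 (standard error 0.47, edgeR adjusted p = 0.999), and it turned positive without *Rest* pKO replicate 1 (0.05) and without control replicate 1 (0.57). The Poisson intervals of its control libraries alone ran from 0.656 to 2.97 CPM, so that counts this low allow only a coarse comparison.

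*Nrtn*, which encodes neurturin (chr17:56890748-56896953, minus strand, 1.02 kb of exon), was counted 11 and 9 times in *Rest* pKO and 12 and 21 times in control. These counts gave 0.510 and 0.410 CPM in *Rest* pKO, against 0.714 and 1.06 CPM in control. Both *Rest* pKO libraries were lower, but the Poisson interval of the lower control, 0.369 to 1.25 CPM, covered both of them. The log2 fold change was −0.95 (standard error 0.53, edgeR adjusted p = 0.640). *Artn*, which encodes artemin (chr4:117598767-117602368, minus strand, 2.40 kb of exon), was counted 12 and 10 times in *Rest* pKO and 10 and 17 times in control, or 0.556 and 0.456 CPM against 0.595 and 0.857 CPM. Its log2 fold change of −0.53 (standard error 0.53, edgeR adjusted p = 0.755) was no larger than its error. *Pspn*, which encodes persephin (chr17:57138880-57139441, minus strand, 0.47 kb of exon), had 0 counts throughout, for which the upper Poisson bounds were 0.171 and 0.168 CPM in *Rest* pKO and 0.220 and 0.186 CPM in control. A level of 3 counts per library would be 0.139 and 0.137 CPM in *Rest* pKO and 0.179 and 0.151 CPM in control. Intervals and limits of this kind cover counting error only. All ligand genes together gave 56 and 55 counts in *Rest* pKO and 58 and 59 counts in control, from libraries of unequal depth. As levels these sums were 2.60 and 2.51 CPM in *Rest* pKO, against 3.45 and 2.98 CPM in control.

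Because each genotype held a male and a female, every difference was also taken within a sex. *Ret* was higher in *Rest* pKO by 0.94 on the log2 scale between the females and by 1.52 between the males, and *Gfra3* by 0.89 and 0.98. *Nrtn* had log2 ratios of −0.78 in females and −1.02 in males, and *Artn* of −0.39 and −0.61. These 4 genes kept their direction in either sex, which follows from their *Rest* pKO libraries both lying above or both below the controls and adds nothing to it. *Gfra1*, *Gfra2*, *Gfra4* and *Gdnf* pointed opposite ways in the sexes. The females had equal counts of *Artn* (10 in each library) and of *Gdnf* (36 in each), so their ratios of these genes reflect library size alone. With 1 library per sex and genotype, a difference between sexes was not tested and cannot be told apart from a difference between libraries.

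**Figure D3:**
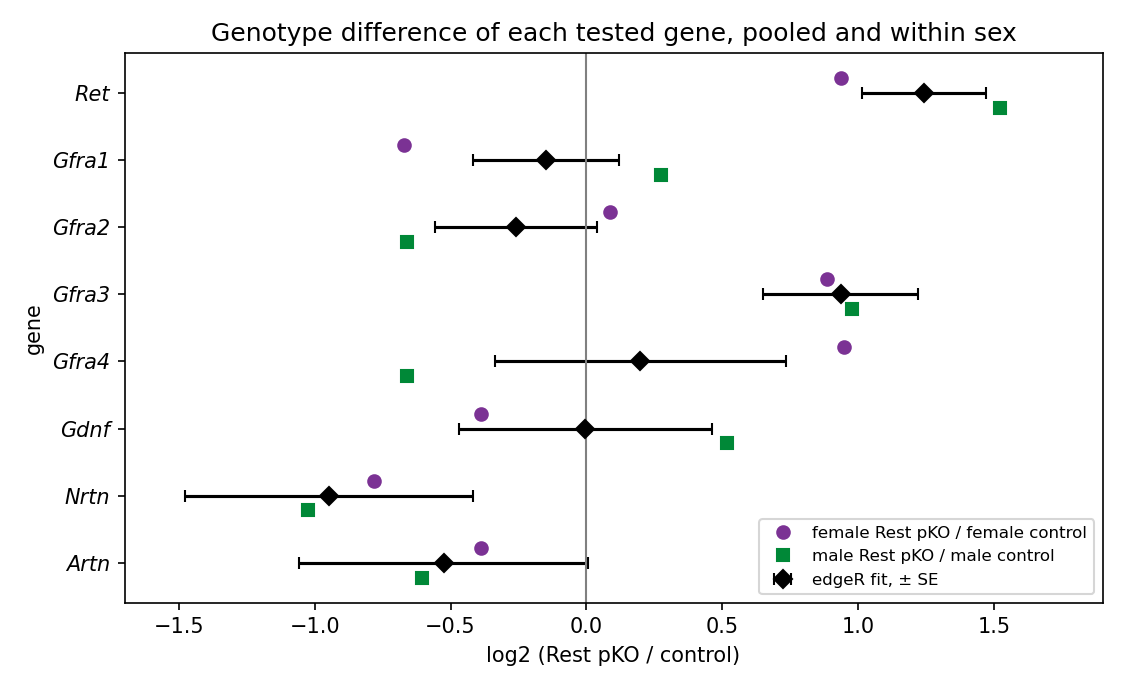
Log2 ratio of *Rest* pKO over control for the 8 tested genes. Diamonds with bars are edgeR's fitted log2 fold change ± its standard error, circles the ratio of the female libraries and squares that of the male libraries. *Ret* (1.24) and *Gfra3* (0.94) lie right of 0 in both sexes and *Nrtn* (−0.95) and *Artn* (−0.53) left of it, while the sexes fall on opposite sides for the other 4 genes.

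The rest of the pathway was read from 45 genes listed by role, of which 36 passed the filter on low counts. Of these, 18 had a positive and 18 a negative log2 fold change, with a median of −0.01. Over all genes tested, the median was −0.0048 and 49.5% were positive. Before adjustment, 3 genes were higher at p under 0.05 (*Etv5*, *Dok4* and *Grb7*) and 2 lower (*Cbl* and *Gas1*), against 3.26% and 5.61% of all genes tested, and edgeR called 0 after adjustment. *Rest* pKO libraries lay above both controls for 7 of the 36 genes and below both for 8, against 21.5% and 21.2% of all genes tested.

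Among 15 tested adaptors and effectors that act next to RET, 7 were positive and 8 negative, with a median log2 fold change of −0.03. *Dok4*, a docking protein that binds phosphorylated RET, had 25.5 and 27.5 CPM in *Rest* pKO libraries, against 14.0 and 20.8 CPM in control libraries. Its log2 fold change was 0.60 (standard error 0.23, unadjusted p = 0.0324 and adjusted p = 0.518 from edgeR). *Grb7*, an SH2-domain adaptor, had 24.4 and 27.9 CPM in *Rest* pKO and 17.7 and 18.6 CPM in control. *Cbl*, a ubiquitin ligase that marks active receptor kinases for degradation, had 8.76 and 13.0 CPM in *Rest* pKO, against 16.6 and 20.5 CPM in control. The *Rest* pKO libraries were thus above both controls for *Dok4* and *Grb7* and below both for *Cbl*, each with an adjusted p from edgeR between 0.483 and 0.518. Central adaptors differed little, among them *Shc1*, *Grb2*, *Gab1* and *Ptpn11*, with log2 fold changes of 0.06, −0.14, −0.10 and −0.03.

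Of 12 tested genes known to depend on RET in the ureteric bud of the kidney, 7 were positive and 5 negative, with a median of 0.20. *Etv5*, an ETS transcription factor that RET signalling raises in the kidney, had 40.0 and 29.2 CPM in *Rest* pKO, against 18.1 and 19.5 CPM in control. Its *Rest* pKO libraries lay apart from the controls, with a log2 fold change of 0.88 (standard error 0.22), an unadjusted p of 0.00405 and an adjusted p of 0.396 from edgeR. Its close relative *Etv4* had 2.60 and 2.05 CPM in *Rest* pKO and 1.37 and 2.32 CPM in control, which overlap. *Spry1*, a feedback inhibitor of receptor kinases, had 26.6 and 23.6 CPM in *Rest* pKO and 20.2 and 19.5 CPM in control, with a log2 fold change of 0.34 (edgeR adjusted p = 0.637). *Met*, the receptor for hepatocyte growth factor, had a log2 fold change of −0.31 (edgeR adjusted p = 0.650).

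Among 6 tested genes for other receptors and modulators of the ligands, 2 were positive and 4 negative, with a median of −0.11. *Gas1*, a membrane protein related to GFRA proteins, had 42.6 and 34.3 CPM in *Rest* pKO, against 58.5 and 64.4 CPM in control. Both *Rest* pKO libraries were lower, and edgeR's log2 fold change of −0.68 ± 0.19 (SE, adjusted p = 0.424) became −0.84 without *Rest* pKO replicate 1. In that fit, whose residual spread comes from the controls alone, *Gas1* was among 455 genes called lower. *Lrig1*, which restrains RET and other receptor kinases, had 40.8 CPM in each *Rest* pKO library and 31.8 and 31.6 CPM in control (edgeR adjusted p = 0.598). *Gfral*, the receptor for GDF15, had no count in any library. Of 9 transcription factors listed as acting upstream of *Ret*, 3 passed the filter. *Sox10*, a factor of neural crest and Schwann cells, had 4.27 and 2.41 CPM in *Rest* pKO, against 2.02 and 1.61 CPM in control (log2 fold change 0.88, edgeR adjusted p = 0.589).

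**Figure D4:**
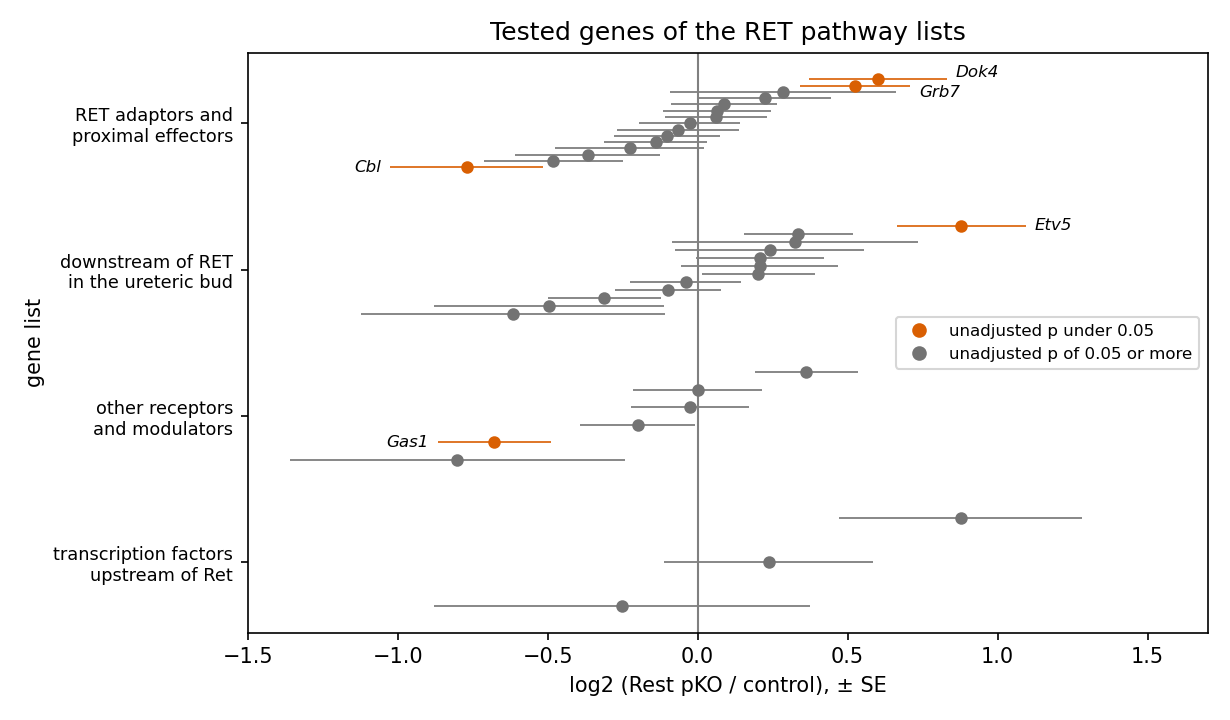
Log2 fold change of *Rest* pKO over control for the 36 tested pathway genes, grouped by list, with bars of ± 1 standard error from edgeR. Genes at an unadjusted p under 0.05 are named. *Etv5* (0.88), *Dok4* (0.60) and *Grb7* (0.52) lie right of 0 among the named genes and *Cbl* (−0.77) and *Gas1* (−0.68) left of it, and the rest spread on both sides of 0.

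Markers of several cell types in the organ also differed between these libraries, without a gene of any list called by edgeR. All 8 islet hormone genes had positive log2 fold changes with a median of 0.84, and their summed level was 4135 and 6226 CPM in *Rest* pKO, against 2914 and 1956 CPM in control. DESeq2 called 4 of them higher, where it called 0.182% of the genes to which it gave an adjusted p. All 8 endocrine progenitor genes were positive too, with a median of 0.44, but their summed level overlapped between genotypes, at 114.7 and 77.6 CPM in *Rest* pKO and 83.9 and 69.4 CPM in control. *Neurog3*, the factor that starts endocrine differentiation, had 17.4 and 15.5 CPM in *Rest* pKO and 8.99 and 11.5 CPM in control. The more abundant *Isl1* (27.8 and 19.9 against 25.4 and 17.0 CPM) and *Nkx2-2* (19.8 and 12.6 against 15.2 and 15.0 CPM) overlapped. Of the 8 genes, 3 lay above both controls in *Rest* pKO and 5 overlapped. The hormone sum thus lay above both controls in each *Rest* pKO library, and the progenitor sum in replicate 1.

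Sums of nerve markers also lay above both controls. Of 11 autonomic neuron genes, 6 were tested and all 6 were positive, with a median of 1.05 and a sum of 22.1 and 41.7 CPM in *Rest* pKO, against 17.6 and 13.2 CPM in control. Among the transmitter enzyme genes of that list, *Chat* was at 0 throughout and *Dbh* was between 0 and 0.0456 CPM, while *Th* had 1.67 and 2.64 CPM in *Rest* pKO, against 1.49 and 0.908 CPM in control. Of 9 Schwann cell and enteric glia genes, 7 were tested and all 7 were positive, with a median of 0.79 and a sum of 43.8 and 43.3 CPM in *Rest* pKO, against 31.0 and 33.8 CPM in control. In contrast, 6 of 8 duct genes were negative (median −0.09), although their sum, most of it *Spp1*, overlapped at 938.8 and 783.3 CPM in *Rest* pKO and 852.3 and 745.7 CPM in control, and 8 of 9 mesenchyme genes were negative (median −0.49). The mesenchyme sum was 4486 and 7107 CPM in *Rest* pKO, against 8503 and 7624 CPM in control. Of the other lists, all 5 endothelial genes were positive (median 0.31), 3 of 5 smooth muscle genes were positive (median 0.13), and all 6 macrophage and leukocyte genes (median −0.75) and all 4 tested red cell genes (median −2.33) were negative. The red cell sum was 21.8 and 21.3 CPM in *Rest* pKO, against 31.9 and 129.1 CPM in control, so that control replicate 2 stood far above the rest. DESeq2 called 3 macrophage and leukocyte genes lower, among 76 genes that it called lower in all. The part of these cell types in the differences of *Ret* and *Gfra3* was not tested.

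Set against these sums, *Ret* stayed apart between genotypes for some lists and not for others. Per 1000 CPM of duct markers, *Ret* was at 24.4 and 22.3 CPM in *Rest* pKO, against 10.7 CPM in each control, a log2 difference of 1.13. Per 1000 CPM of endocrine progenitor markers it was at 200.2 and 225.4 CPM in *Rest* pKO, against 108.6 and 114.8 CPM in control, a log2 difference of 0.93. The genotypes stayed apart in both ratios, and also per Schwann and glia marker (log2 difference 0.81) and per mesenchyme marker (1.75). The Schwann and glia ratio rests largely on *Erbb3* and was not taken without that gene. Per 1000 CPM of islet hormones, by contrast, *Ret* was at 5.55 and 2.81 CPM in *Rest* pKO and 3.13 and 4.07 CPM in control, and the genotypes overlapped. They overlapped per neuron marker as well, with a log2 difference of 0.24. Per 1000 CPM of neuron markers *Ret* was at 1040 and 420 CPM in *Rest* pKO, against 519 and 605 CPM in control. The low value came from *Rest* pKO replicate 2, where *Npy* had 14.2 CPM, against 2.74 CPM in replicate 1. In control *Npy* had 6.55 and 3.28 CPM, and the neuron ratio was not taken without that gene. *Gfra3* followed the same division, with log2 differences of 0.83 per duct and 0.63 per endocrine progenitor marker and of −0.15 per islet hormone and −0.06 per neuron marker. Its genotypes overlapped in the ratios to islet hormones and neuron markers. Mean marker sums in *Rest* pKO were 2.13 times those of control for islet hormones and 2.07 times for neurons. They were 1.08 times for duct, 1.25 for endocrine progenitors, 1.34 for Schwann and glia and 0.719 for mesenchyme. The division largely follows these sums, as the ratios use the values of *Ret* and *Gfra3* that guided the choice of genes. They carry no test.

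**Figure D5:**
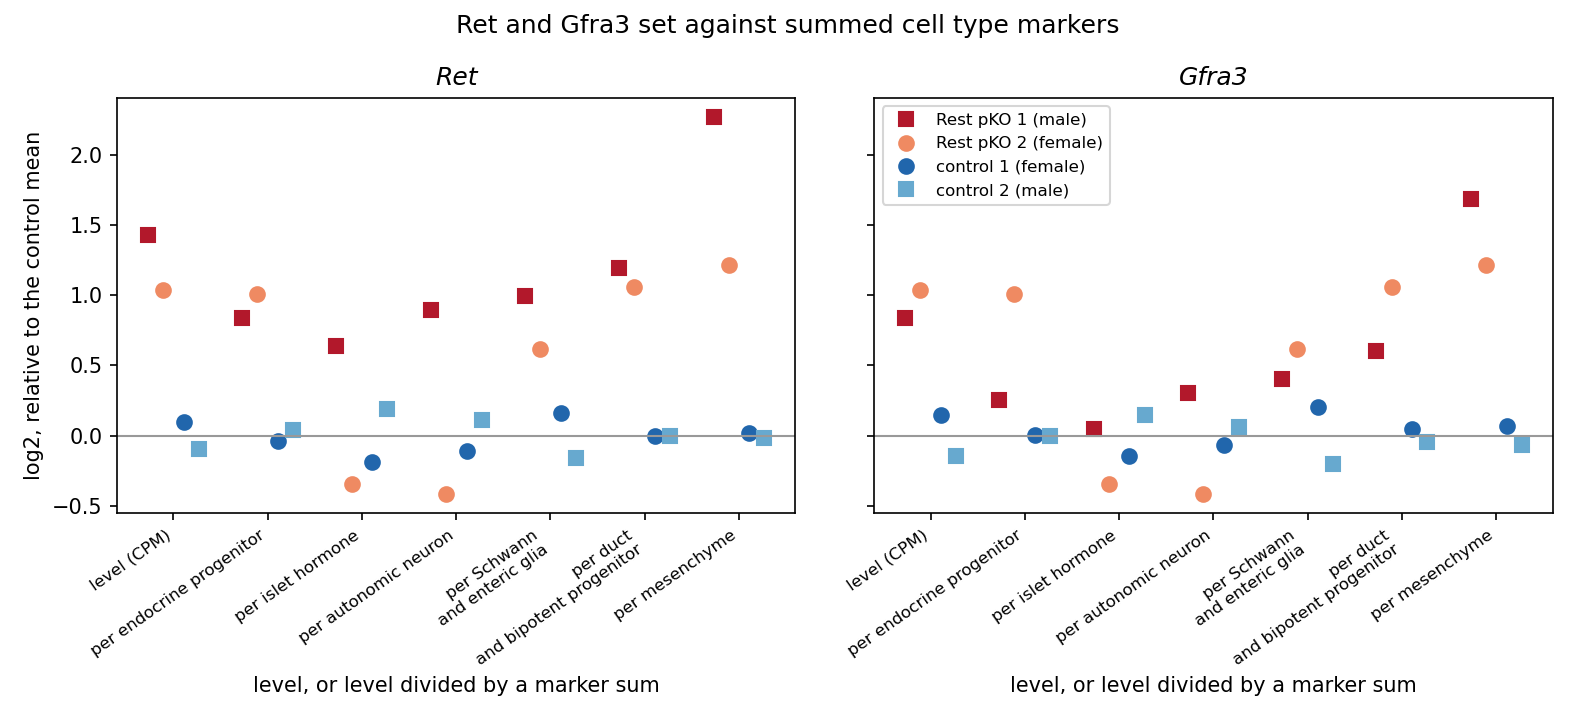
*Ret* (left panel) and *Gfra3* (right panel) as levels and as levels divided by the summed CPM of a marker list, on a log2 scale relative to the mean of the control libraries. Points are single libraries, with *Rest* pKO left of control. The *Rest* pKO libraries lie above both controls as levels and per duct, mesenchyme, Schwann and glia or endocrine progenitor marker, and do not lie apart from the controls per islet hormone and per neuron marker. Most of the Schwann and glia sum is *Erbb3*, and ratios without it were not taken. The neuron sum of *Rest* pKO replicate 2 includes 14.2 CPM of *Npy*, and ratios without that gene were not taken either. The ratios use the values of *Ret* and *Gfra3* that guided the choice of genes and carry no test.

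Fold changes in these libraries ran with exon length. With genes split by length into 5 equal classes, the median log2 fold change was 0.15 in the shortest class and −0.19 in the longest. *Ret* belongs to the longest class and had a positive log2 fold change, while *Gfra3* and *Nrtn* belong to the shortest. The part of this trend in the single values was not tested.

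Genes with a profile most like that of a member were sought among 13618 genes with a mean of at least 1 CPM, by the root mean square difference of centred log2 CPM over the 4 libraries. The closest to *Ret* were *Kcnk16* (0.0574), *P2ry1* (0.0796) and *Cd59a* (0.0826), with fitted log2 fold changes of 1.30, 1.21 and 1.23. The closest to *Gfra3* were *Mapk8ip2* (0.0291), *Pim2* (0.0343) and *Ap3b2* (0.0362), with log2 fold changes of 0.89, 0.89 and 0.99. The nearest genes of *Gfra1* were *Wsb1*, *Lyrm5* and *Luc7l3*, those of *Gfra2* were *Adamts15*, *Zbtb40* and *Cyth4*, and those of *Gdnf* were *Prelid2*, *5530601H04Rik* and *1810063I02Rik*. With 4 libraries, many genes share a profile of this kind, and the measure describes likeness only.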

How the data were processed

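RNA-seq of 4 libraries of E18.5 pancreas, 2 *Rest* pKO and 2 control, was analysed, with genotype and number taken from the sample labels. The file as deposited holds raw counts of reads for each gene. According to the methods, the authors aligned 100-bp paired-end reads with STAR to mm9, kept uniquely mapped reads and assigned them to UCSC genes with featureCounts (1.5 in the submitters' processing notes). The strand setting, and whether reads or pairs were counted, are not given in the sources used here. The methods give 3 pancreas per genotype against 2 libraries here, and how the libraries relate to the pancreas collected is not stated. The p-values set a difference against the spread between these libraries, which edgeR moderates across all genes. The median prior degrees of freedom were 5.48, against 2 residual.

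Genes were tested with edgeR 4.0.16 in R 4.3.3 (filterByExpr, TMM, glmQLFit and glmQLFTest), on a design of genotype alone, and p-values were adjusted over 14550 genes by Benjamini-Hochberg. Standard errors are the log2 fold change divided by the square root of F. CPM use TMM-scaled library sizes, with factors of 1.04 and 0.910 in *Rest* pKO and 0.992 and 1.06 in control, and intervals are exact Poisson at 95%. Positions and exon lengths come from GENCODE M1 (mm9), matched by symbol. Replicates differed by more than sampling noise, with a chi-square per degree of freedom of 64.9 in *Rest* pKO and 23.2 in control.

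The members, lists and alternatives were chosen with earlier results of these data known. The rule for naming covered all members, *Rest* and pathway genes at an unadjusted p under 0.05 or among the 3 of smallest p of their list. It also covered the 3 most abundant genes of a marker list and the 3 nearest profiles of a member with a mean of at least 1 CPM. *Shc1*, *Grb2*, *Gab1*, *Ptpn11*, *Etv4*, *Gfral*, *Chat*, *Dbh* and *Th* fall outside this rule and were added after their values were seen. Alternatives were DESeq2 1.42.0, its size factors in edgeR, no filter, at least 1 CPM in 2 libraries, a replicate block, sex as a term and leaving out each library. The edgeR procedure was also run on 3 simulated sets with 200 changed genes each, drawn with the same spread for all genes and no sex effect. That setting is simpler than these libraries, so it does not bear on the calls of single genes here. Values of some listed genes are not reported here.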

Additional observations from a re-analysis of the deposited data

Results flagged for a closer look

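For 4 of the tested genes, the difference between genotypes pointed one way between the females and the other way between the males. With 1 library per sex and genotype, none of these differences between sexes was tested. *Gfra1* had a log2 ratio of *Rest* pKO over control of −0.67 in females and 0.28 in males. *Gfra2* had 0.085 in females and −0.66 in males, and *Gfra4* had 0.95 in females and −0.66 in males. *Gdnf* had −0.39 in females and 0.52 in males, and the female value reflects library size alone, as both females had 36 counts.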

How the results depend on the processing

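The count of genes called set the limits of this comparison. Against 0 higher and 4 lower with genotype alone in edgeR, DESeq2 called 26 higher and 76 lower, and 60 were higher and 187 lower once sex was added as a term. Leaving out 1 library gave 1 to 59 genes higher and 0 to 455 lower. The highest of each came without *Rest* pKO replicate 1 and the lowest without *Rest* pKO replicate 2, while leaving out control replicate 1 gave 50 higher and 158 lower and control replicate 2 gave 27 and 73. Such a fit takes its residual spread from the genotype that keeps 2 libraries. The cause was not tested. Members called numbered 0 with genotype alone and 1 with DESeq2 or with sex as a term, in each case *Ret*, with a log2 fold change of 1.25 (adjusted p = 0.0125) and 1.23 (adjusted p = 0.00481). Leaving out 1 library, *Ret* stayed between 1.04 and 1.43 and *Gfra3* between 0.80 and 1.08, with no member called. Pathway genes called were 0 to 1, with *Gas1* called lower without *Rest* pKO replicate 1.

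The direction of 4 members turned. *Gfra1* ran from −0.58 to 0.19 when 1 library was left out, *Gfra2* from −0.59 to 0.018, *Gfra4* from −0.39 to 0.62 and *Gdnf* from −0.43 to 0.57. *Gdnf*, at −0.0041, also turned to 0.0041 with no filter, to 0.052 with a replicate block and to 0.054 with sex as a term. *Nrtn* and *Artn* were lost when 2 libraries had to reach 1 CPM. Same-numbered libraries did not deviate together (correlation 0.0478), and the fit with a replicate block called 0 genes higher, 4 lower and 0 members, with *Ret* at 1.23 (adjusted p = 0.122).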
